A study of Sorghum bicolor with 12 samples.

Results

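Messenger RNA was compared between roots of the sorghum line NIL-bri1-72 and of its wild-type sister line NIL-WT-72, both under drought. The comparison takes 6 of the 12 libraries of the series, 3 droughted libraries of NIL-bri1-72 and 3 droughted libraries of NIL-WT-72, selected by their labels, and describes all 20818 gene identifiers in the table of counts. NIL-bri1-72 carries a single-base change in the extracellular region of the brassinosteroid receptor SbBRI1, and NIL-WT-72 lacks it. Both lines come from BC2F3 plants of a family mutagenized with EMS, a chemical that causes base changes, and the submitters assume rather than show that the lines are near-isogenic. Roots were taken from mature plants held at 30% of field capacity, a measure of how much water the soil retains, and the other 6 libraries are watered plants of the same lines. Each genotype is represented by 1 line, so the receptor change cannot be told apart from any other segment in which the lines differ. The labels give 3 biological replicates per line and regime, without saying whether a replicate is a plant or a pool.

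BRI1 is a receptor kinase at the cell surface that binds brassinosteroids, steroid hormones that promote cell elongation and vascular development. Binding inactivates an inhibitory kinase inside the cell and lets transcription factors of the BES1/BZR1 family change the expression of their target genes. In Arabidopsis these factors and the factors of the drought response repress each other in part, so brassinosteroid signalling and drought are linked in that species. The stated aim of the series was to find early targets of SbBES1 in drought sensing, and the comparison of the lines under drought asks which transcripts differ when the receptor is altered and water is short.

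Under drought no gene passed the edgeR quasi-likelihood test of NIL-bri1-72 against NIL-WT-72, 0% of the 20818 genes tested at a Benjamini-Hochberg adjusted p below 0.05. DESeq2 called 1 gene, 0.0048% of those tested, which was lower in NIL-bri1-72, and limma voom called 0. An unadjusted edgeR p below 0.05 was reached by 515 genes, 252 higher and 263 lower in NIL-bri1-72. By DESeq2 609 genes had such a p and by limma voom 521. The edgeR share was 2.47% of genes in drought, under the fraction of 0.05 that this threshold gives where no gene differs, against 5.24% in the same fit for the watered plants of both lines. The lowest unadjusted edgeR p of all was 0.000292, that of Sobic.007G154300.

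Typical differences were small among the genes that the table of counts holds. Widths to either side of the 95% limma voom interval for the log2 fold change had a median of 0.38. For 17710 genes, 85.1%, that interval lay between a 2-fold decrease and a 2-fold increase, and for 12286 genes, 59.0%, it lay within 1.5-fold either way. Precision followed the level of the gene. Among the 5122 genes that averaged more than 50 CPM over the droughted libraries, that is counts scaled by TMM to a common library total, 96.7% had an interval within 2-fold. Among the 1864 genes below 2 CPM the share was 46.9%, so at low abundance larger differences remain compatible with the values. The 5th percentile of the log2 fold change was -0.41, the 95th was 0.32 and the median was 0.003.

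Droughted totals were 25515363, 30841591 and 32109287 counts in NIL-bri1-72, against 29382825, 31014782 and 26726791 counts in NIL-WT-72. The table holds no 0, and the smallest count of a droughted library was 10 to 13, or 0.387 to 0.412 CPM before TMM scaling. In the watered libraries it was 8 to 13, or 0.379 to 0.429 CPM. A gene that is silent or below these levels in any of the 12 libraries is therefore not analysed here. Differences of genes that fall that low in 1 line are not seen. The table gives identifiers without names, and 0 of them matched the sorghum RefSeq table, so the level of SbBRI1, the markers of root tissue and the members of the brassinosteroid and phenylpropanoid pathways are not reported. The chromosome of a gene is read from its identifier, and no sequence was available for these identifiers.

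The 4 genes described next had the lowest edgeR p in each direction among genes of at least 10 CPM in 1 of the lines whose droughted libraries did not overlap. That condition was met by 591 genes higher and 273 genes lower in NIL-bri1-72. They were selected on this difference, so the separation of their libraries is not evidence for it, and by edgeR each had an adjusted p of 1.00.

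Sobic.007G154300 on chromosome 7 ranked first by p and was the gene that DESeq2 called. It was at 5.09, 4.39 and 5.43 CPM in the droughted libraries of NIL-bri1-72, against 9.63, 9.64 and 13.98 CPM in those of NIL-WT-72. All 3 mutant libraries thus lay below all 3 wild-type libraries, with NIL-WT-72 replicate 3 the highest. The droughted mean was 4.97 ± 0.532 CPM for NIL-bri1-72, against 11.1 ± 2.51 CPM for NIL-WT-72 (SD, n = 3 each), and NIL-WT-72 had 2.23 times the NIL-bri1-72 level. The log2 fold change was -1.16 (standard error, SE, 0.22; 95% interval from -1.65 to -0.67; edgeR adjusted p = 1.00), and the DESeq2 adjusted p was 0.0207. Without NIL-WT-72 drought replicate 3 the log2 fold change was -0.96. In water, where the libraries entered the spread behind the p used to choose the gene but not the difference itself, it was at 1.95, 2.24 and 2.95 CPM in NIL-bri1-72, against 6.68, 7.08 and 4.72 CPM in NIL-WT-72. The watered lines did not overlap either and lay in the same order (edgeR adjusted p = 0.888). The difference between the lines in drought minus that in water was 0.22 log2 units, with an SE of 0.32 (edgeR adjusted p = 1.00).

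Sobic.002G421300 on chromosome 2 was the more abundant of the genes with lower values in the mutant. Its droughted libraries held 105.6, 118.0 and 126.9 CPM in NIL-bri1-72, against 195.8, 225.8 and 181.4 CPM in NIL-WT-72. The gap between the lines, from 126.9 to 181.4 CPM, was wider than the range within either line. NIL-bri1-72 averaged 116.8 ± 10.7 CPM, against 201.0 ± 22.6 CPM for NIL-WT-72 (SD, n = 3 each), a log2 fold change of -0.78 (SE 0.16, 95% interval from -1.15 to -0.42, edgeR adjusted p = 1.00, DESeq2 adjusted p = 0.162). In water the lines overlapped, with NIL-bri1-72 at 85.8 to 110.4 CPM and NIL-WT-72 at 76.0 to 114.9 CPM. The drought difference minus the water difference was -0.87 log2 units, with an SE of 0.23 (edgeR adjusted p = 1.00), which did not pass.

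Sobic.006G240900 on chromosome 6 had higher values in the mutant under drought. It was at 10.8, 10.9 and 11.0 CPM in NIL-bri1-72, against 8.14, 8.21 and 6.57 CPM in NIL-WT-72. The mutant libraries were nearly equal and all lay above the wild-type ones, the lowest of which was replicate 3. Its log2 fold change was 0.51 (SE 0.13, 95% interval from 0.24 to 0.79, edgeR adjusted p = 1.00, DESeq2 adjusted p = 0.481). In water NIL-bri1-72 averaged 11.5 ± 0.902 CPM, against 11.0 ± 0.829 CPM for NIL-WT-72 (SD, n = 3 each), and the libraries of the lines overlapped. The droughted wild-type libraries were thus the low group among the 4.

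Sobic.004G117900 on chromosome 4 showed the smaller difference of the genes with higher values in the mutant. Its levels were 80.4, 83.9 and 78.8 CPM in droughted NIL-bri1-72, against 57.4, 66.5 and 63.2 CPM in droughted NIL-WT-72. The groups did not overlap, and the mutant mean was 1.30 times the wild-type mean. On the log2 scale the difference was 0.38 (SE 0.10, 95% interval from 0.17 to 0.59, edgeR adjusted p = 1.00, DESeq2 adjusted p = 0.715). Watered NIL-bri1-72 averaged 67.9 ± 4.82 CPM, against 64.1 ± 6.83 CPM for watered NIL-WT-72 (SD, n = 3 each), and the watered lines overlapped.

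**Figure D1:**
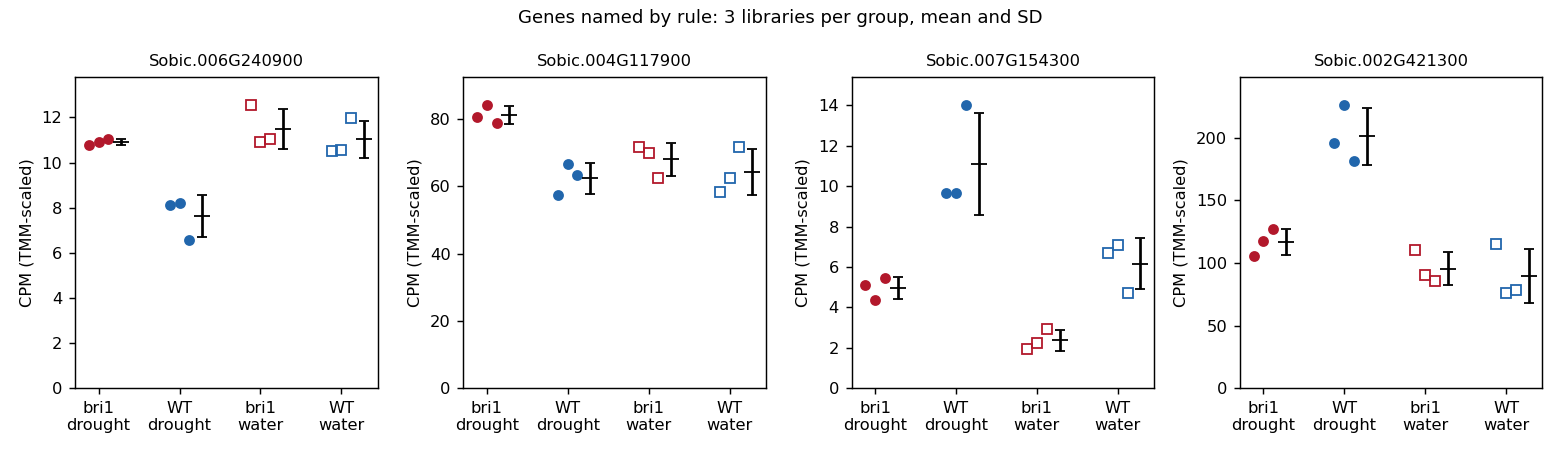
CPM after TMM scaling (linear axes from 0) in each of the 12 libraries for Sobic.006G240900, Sobic.004G117900, Sobic.007G154300 and Sobic.002G421300. Points are libraries (filled, drought; open, water; red, NIL-bri1-72; blue, NIL-WT-72) and black bars are the mean and SD of 3; the droughted lines do not overlap in any panel, and the watered lines do not overlap for Sobic.007G154300.

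The largest fitted differences of the whole table lay in genes of low or unsteady abundance, and both were chosen after their values were seen. Sobic.003G181400 on chromosome 3 had the largest difference towards NIL-bri1-72, fitted at 2.99 log2 units with an SE of 0.86 (edgeR adjusted p = 1.00). Its counts were 39, 77 and 310 in the droughted libraries of NIL-bri1-72, against 25, 12 and 13 in those of NIL-WT-72. NIL-bri1-72 replicate 3 held most of the mutant counts, and the wild-type counts of replicates 2 and 3 were at or near the smallest count of their libraries, 12 and 11. Without NIL-bri1-72 drought replicate 3 the log2 fold change of Sobic.003G181400 was 1.83.

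Sobic.005G066432 on chromosome 5 had the largest difference towards NIL-WT-72, fitted at -3.07 log2 units with an SE of 1.76 (edgeR adjusted p = 1.00). It was at 2.36, 0.579 and 1.86 CPM in droughted NIL-bri1-72, against 0.869, 1.08 and 38.3 CPM in droughted NIL-WT-72. A single library, NIL-WT-72 replicate 3, was high and the groups overlapped. Without it the direction of Sobic.005G066432 turned, to a log2 fold change of 0.70. The gene was unsteady in water as well, where NIL-bri1-72 ranged over 1.60 to 62.1 CPM and NIL-WT-72 over 2.27 to 76.0 CPM.

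A fitted difference of at least 2-fold, with no test, was reached by 18 genes higher and 72 genes lower in NIL-bri1-72. Of these, 5 and 26 had droughted libraries that did not overlap, where 3.75% and 2.94% of all genes lay wholly higher and wholly lower. Selecting genes by a large fitted difference itself raises that share. The counts at 2-fold were 10 and 50 by limma voom, 13 and 34 by voom with library quality weights, and 9 and 54 with a replicate block on the 6 droughted libraries. Many of them had their highest value in the same library. Of the 72 lower genes 58 had their highest value in NIL-WT-72 replicate 3, and of the 18 higher genes 15 had their highest value in NIL-bri1-72 replicate 1. Over all genes, without selection by direction, these libraries were the highest in 19.1% and 22.6%. The other NIL-WT-72 libraries were the highest in 10.6% and 7.53%, and the other NIL-bri1-72 libraries in 23.3% and 16.9%. A gene selected as higher in a line tends to peak in that line. Holding the highest value therefore does not show that a library makes the difference.

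The excess of lower genes depended on the libraries included. Without NIL-WT-72 drought replicate 3 the counts at 2-fold were 45 higher and 35 lower. Leaving out NIL-bri1-72 drought replicate 1 gave 19 higher and 214 lower, replicate 2 gave 88 and 98, and replicate 3 gave 50 and 165. Leaving out NIL-WT-72 drought replicate 1 gave 33 higher and 153 lower, and replicate 2 gave 86 and 166. The number of genes with an unadjusted edgeR p below 0.05 moved as well. It was 273 without NIL-WT-72 replicate 3, 881 without NIL-bri1-72 replicate 1, 914 without NIL-bri1-72 replicate 3 and 517 to 618 without each of the other droughted libraries.

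**Figure D2:**
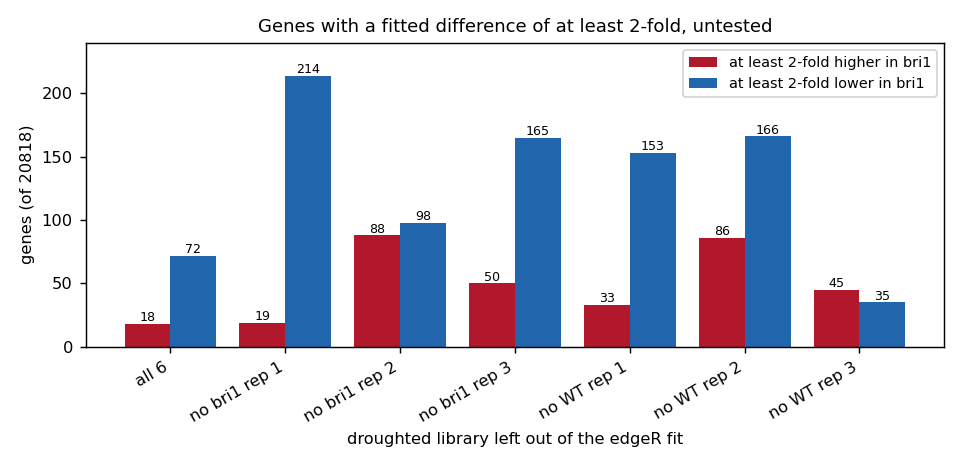
Number of genes, of 20818, with a fitted difference of at least 2-fold under drought with all 6 droughted libraries and with each left out of the edgeR fit. Red bars count genes higher and blue bars genes lower in NIL-bri1-72; the counts are 18 and 72 with all 6 libraries, and the higher genes outnumber the lower ones in the fit without NIL-WT-72 replicate 3 (45 and 35).

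Droughted libraries of different lines were on average no further apart than libraries of the same line. The root-mean-square difference in log2 CPM over all genes was 0.348 to 0.540 for the 9 pairs of a NIL-bri1-72 with a NIL-WT-72 library. It was 0.457 to 0.583 for the 3 pairs within NIL-bri1-72 and 0.328 to 0.448 for the 3 pairs within NIL-WT-72. The mean over between-line pairs minus that over within-line pairs was -0.021 (exact permutation p = 0.9, one-sided, over 10 splits, where the lowest possible is 0.1). This value was positive, at 0.001 to 0.016, without any 1 of the NIL-bri1-72 libraries and negative, at -0.065 to -0.037, without any 1 of the NIL-WT-72 libraries. Each omission also removes pairs within that line, so the value depends on which line supplies most of the within-line pairs.

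Each of the 3 droughted NIL-bri1-72 libraries was closest to a library of NIL-WT-72 and not to one of its own line. NIL-bri1-72 replicate 1 differed from NIL-WT-72 replicate 2 by 0.375 log2 units, against 0.501 and 0.583 from the other NIL-bri1-72 libraries. NIL-bri1-72 replicate 3 differed from NIL-WT-72 replicates 1 and 2 by 0.348 and 0.362, against 0.457 and 0.501 from its own line. For NIL-bri1-72 replicate 2 the nearest library was NIL-WT-72 replicate 1, at 0.391. Counted as genes at least 2-fold apart, NIL-bri1-72 replicates 1 and 2 differed in 1720 genes, while NIL-bri1-72 replicate 3 and NIL-WT-72 replicate 2 differed in 393.

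**Figure D3:**
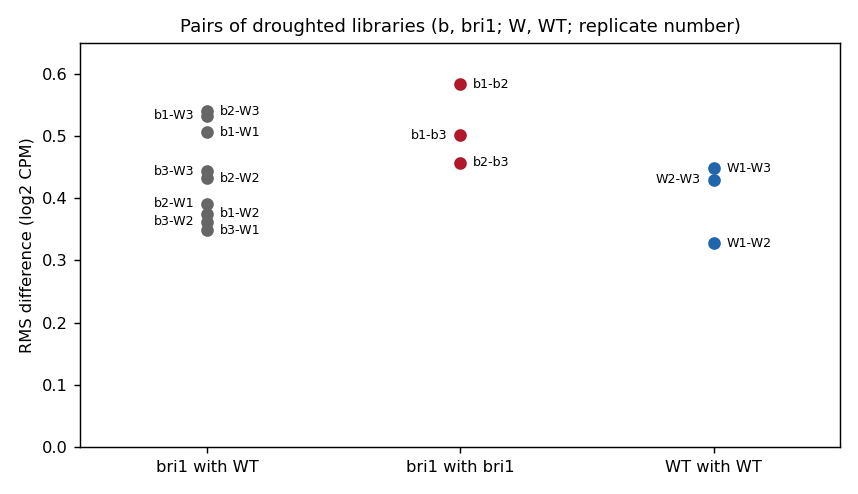
Root-mean-square difference in log2 CPM (vertical axis, from 0) for each of the 15 pairs of droughted libraries, grouped as NIL-bri1-72 with NIL-WT-72, within NIL-bri1-72 and within NIL-WT-72. Labels give line (b, NIL-bri1-72; W, NIL-WT-72) and replicate; the between-line pairs, at 0.348 to 0.540, overlap both within-line groups.

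Under drought the NIL-bri1-72 libraries varied more than those of NIL-WT-72, and in water the order was the other way. The median over genes of the SD of log2 CPM was 0.224 in NIL-bri1-72 and 0.145 in NIL-WT-72, and 69.9% of genes had the larger SD in NIL-bri1-72. Pairs within NIL-bri1-72 had 941 to 1720 genes at least 2-fold apart, and pairs within NIL-WT-72 had 366 to 929. These pairs share libraries, and with 3 per line the difference in spread was not tested. In water, root-mean-square deviations of libraries from their group mean were 0.183, 0.216 and 0.233 log2 units in NIL-bri1-72. They were 0.396, 0.265 and 0.339 in watered NIL-WT-72. In drought, without NIL-bri1-72 replicate 1, the share of genes with the larger SD in NIL-bri1-72 was 54.9%. That was the lowest share with any droughted library left out. The share fell whichever NIL-bri1-72 library was left out, and was 69.1% to 79.1% without any 1 of the NIL-WT-72 libraries. Each omission makes the SDs of the lines rest on unequal numbers of libraries, so the fall cannot be assigned to replicate 1.

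Principal components of the 6 droughted libraries gave a like picture. The first held 36.4% of the variance and had NIL-bri1-72 replicate 1, at 45.8, and NIL-bri1-72 replicate 2, at -36.3, as its ends. The second held 27.2% and set NIL-WT-72 replicate 3 at 43.9, with the other libraries between -21.0 and 7.07. The lines separated on the fourth, with 11.3% of the variance, at -19.2 to -5.27 in NIL-bri1-72 and -0.801 to 23.7 in NIL-WT-72. By gene, NIL-bri1-72 replicates 1 and 2 gave the highest value of the 6 in 22.6% and 23.3% of genes and NIL-WT-72 replicate 2 in 7.53%, where equal shares would be 16.7%.

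Across the table, all 3 droughted NIL-bri1-72 libraries lay above all 3 droughted NIL-WT-72 libraries in 780 genes, 3.75% of those tested, and below them in 613 genes, 2.94%. Together these are 1393 genes or 6.69%, against 10.4% for the watered lines. Where 3 libraries are exchangeable with 3 others, a gene separates in this way with a probability of 0.1. The drought share was under that value. None of them passed the edgeR test, and their direction, level and position are given as descriptions. The differences of these genes were mostly small, with a median log2 fold change of 0.22 for the higher and -0.36 for the lower genes.

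Direction went with abundance among these genes, and this rested on NIL-bri1-72 drought replicate 2. Above 50 CPM, 210 genes lay wholly higher and 53 wholly lower in NIL-bri1-72, and between 10 and 50 CPM the counts were 363 and 200. Between 2 and 10 CPM they were 148 and 259, and below 2 CPM 59 and 101. Genes with values lower in the mutant were thus the majority at low levels and the minority at high levels. Scaling by library totals in place of TMM left 213 higher and 68 lower genes above 50 CPM and 56 and 101 below 2 CPM. Without NIL-bri1-72 drought replicate 2 the order turned, to 357 higher and 429 lower genes above 50 CPM and to 201 higher and 174 lower genes below 2 CPM, where fewer libraries let more genes pass. With any other droughted library left out the higher genes remained more numerous above 50 CPM and the lower ones below 2 CPM. No gene above 50 CPM had a 2-fold difference without overlap.

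**Figure D4:**
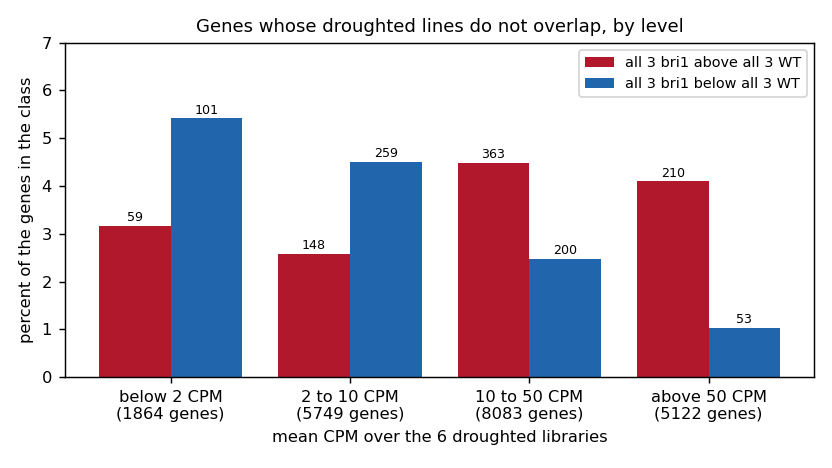
Share of genes in each class of mean droughted level (horizontal axis, CPM) whose 3 droughted NIL-bri1-72 libraries all lay above (red) or all below (blue) the 3 of NIL-WT-72, with gene counts over the bars. Higher genes are the more numerous above 50 CPM (210 and 53), and lower genes are the more numerous below 2 CPM (59 and 101), an order that turns without NIL-bri1-72 drought replicate 2 (357 and 429; 201 and 174).

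**Figure D5:**
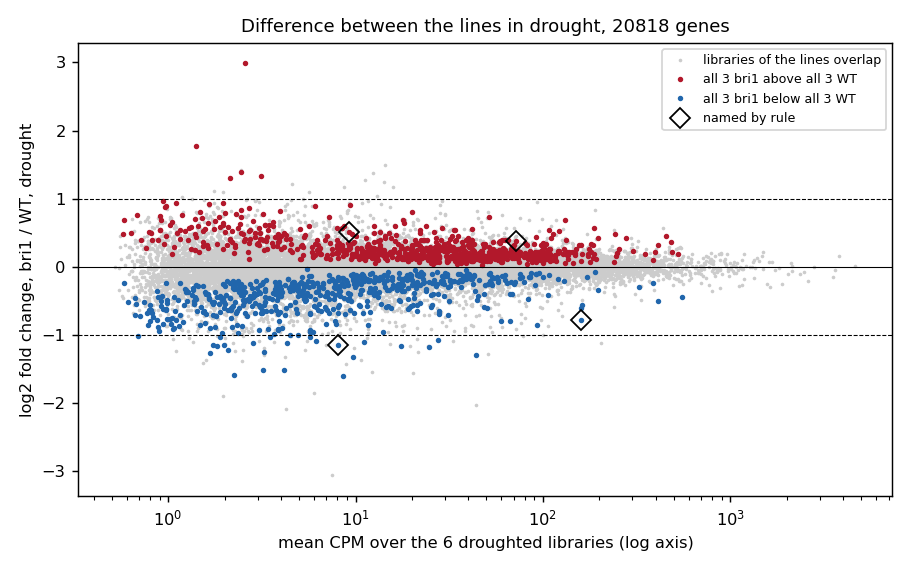
Fitted log2 fold change of NIL-bri1-72 over NIL-WT-72 under drought against mean CPM over the 6 droughted libraries (log axis) for 20818 genes. Coloured points are genes whose lines do not overlap, diamonds are the 4 genes named by rule, and dashed lines mark 2-fold; the points narrow towards 0 as the level rises, and 18 genes lie above and 72 below the dashed lines.

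Near-isogenic lines can differ in a block of neighbouring genes, so the genes without overlap were placed along the 10 chromosomes by the order of their identifiers, for 20802 genes. Their share by chromosome ran from 6.02% on chromosome 8 to 7.92% on chromosome 4, against 6.69% over the table. Median log2 fold changes by chromosome lay between -0.009 and 0.009. In windows of 50 neighbouring genes the median was 3 genes without overlap and the highest of 2037 windows held 10, on chromosome 4, with 4 higher and 6 lower in NIL-bri1-72. The longest run of adjacent genes without overlap in the same direction was 3 genes. Counted by direction, a window held at most 7 higher or 7 lower genes.

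By the mean log2 fold change of a window, a stretch of 90 genes on chromosome 5, the 311th to the 400th in order, had the lowest values, and it was chosen after they were seen. Its 5 lowest windows averaged -0.36 to -0.24, against -0.16 for the lowest window outside it and 0.11 for the highest of all windows. Within the stretch 18 genes lay below -0.5, Sobic.005G066432 among them, and 16 of the 18 had their highest droughted value in NIL-WT-72 replicate 3.

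Averaged over the stretch, log2 CPM relative to the mean of all 12 libraries was -0.11, -0.20 and -0.13 in droughted NIL-bri1-72, against -0.11, -0.12 and 0.28 in droughted NIL-WT-72. A single droughted library, NIL-WT-72 replicate 3, was thus high. In water the values were -0.02, -0.12 and 0.15 in NIL-bri1-72, against 0.19, -0.05 and 0.25 in NIL-WT-72, so high libraries occurred in both lines. The mean log2 CPM difference between the droughted lines over the stretch was -0.17 with all libraries and -0.03 without NIL-WT-72 drought replicate 3. No test of position was made.

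The watered plants of both lines share no library with the droughted ones and gave a second look at the same genes. Of the 780 genes wholly higher in droughted NIL-bri1-72, 108 were wholly higher in water too. These are 13.8% of the drought list, where 6.09% of all genes were wholly higher in water. They are 8.52% of the 1267 genes of the water list, where 3.75% of all genes were wholly higher in drought. Of the 613 wholly lower genes, 59 were wholly lower in water. These are 9.62% of the drought list, where 4.36% of all genes were wholly lower in water. They are 6.50% of the 908 genes of the water list, where 2.94% of all genes were wholly lower in drought. Another 9 and 13 genes lay wholly the other way in water. Over all genes 61.1% had the same sign of difference in both regimes. With 1 of the 12 libraries left out this share was 53.5% to 65.8%. The lowest lacked replicate 3 of droughted NIL-WT-72 and the highest replicate 2 of droughted NIL-bri1-72. In water 69.5% of the wholly higher genes were higher too, against 48.0% of all genes. Of the wholly lower genes 74.7% were lower in water, against 52.0% of all genes. An unadjusted edgeR p below 0.05 in both regimes was reached by 82 genes in the same direction and 0 in opposite ones. Both p-values use a spread from all 12 libraries, so they are not independent.

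Whether any gene differed between the lines in drought by more or less than in water was tested as an interaction. By edgeR 0% of genes passed, with an unadjusted p below 0.05 for 232 genes, and DESeq2 and limma voom also called 0, with 283 and 231 such genes. No difference between the lines was therefore shown to be particular to drought.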

How the data were processed

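Root messenger RNA was measured by paired-end sequencing of stranded libraries, per the labels' protocols. The authors deposited raw counts per gene identifier, 1 column per library. The tools listed, per the submitters' processing notes, are HISAT2 2.1.0, featureCounts 1.6.2, Trimmomatic 0.38 and FastQC 0.11.2. For the build, annotation and strand setting, the sources used here name none, so antisense partners may share reads.

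Groups and replicate numbers came from the sample titles. The main test of the deposited counts was that of edgeR 4.0.16 (R 4.3.3): filterByExpr kept 20818 genes, TMM scaling, and a quasi-likelihood fit of 4 group means to all 12 libraries without a replicate block. P-values were Benjamini-Hochberg adjusted over all genes, and those below 0.05 were called. Standard errors were the absolute log2 fold change over the square root of F. Alternatives used DESeq2 1.42.0, limma 3.58.1 voom, other scaling, filters, libraries and a block. Log2 CPM used a prior count of 2. The 37 gene lists prepared as product patterns could not be applied, because no identifier matched a name. Named genes were the 2 per direction with the lowest p among genes of at least 10 CPM without overlap, plus 2 marked as chosen afterwards. The members and lists were chosen with earlier results of these data known.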

Additional observations from a re-analysis of the deposited data

How the results depend on the processing

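The count of genes called between the lines in drought was 0 by edgeR and 1 by DESeq2. It was 0 by limma voom with and without library quality weights, with DESeq2 size factors in edgeR and with a mean of at least 5 CPM. It was also 0 with only the 6 droughted libraries and with the replicate number as a block over 12 or over those 6 libraries. Leaving out each droughted library gave 0 as well (0 to 0). The fit with no further filter on the deposited counts repeated the main fit, because filterByExpr kept all 20818 genes. It is counted among the alternatives below. The interaction count was 0 under every alternative run for it, the replicate block and each of the 12 libraries left out included. The quality weights and the scalings of the count without overlap were chosen after seeing the data. That count of 1393 genes was 1393 with DESeq2 size factors and 1346 with library totals, and the share of higher genes in it was 56.0%, 54.8% and 52.2%. Sobic.007G154300 passed under 1 of 15 alternatives, DESeq2, with log2 fold changes from -1.25 to -0.96 and adjusted p from 0.0207 to 1.00 over them. The other 3 genes named by rule kept their direction under all 15, with adjusted p from 0.162 to 1.00. Sobic.003G181400 ran from 1.83 to 3.40 over its 14 alternatives. Sobic.005G066432 reversed to 0.70 without NIL-WT-72 drought replicate 3, the library that held its high droughted value. It reached -3.62 without NIL-WT-72 drought replicate 1, the other end of the range over left-out libraries. Why replicate 3 was high was not tested. The log2 fold change of Sobic.005G066432 was -1.21 by limma voom and -0.40 with quality weights, in place of -3.07. The replicate numbers are not stated to mark a shared plant, pot or day, so they were not taken to pair the samples. Between the lines, deviations of same-numbered droughted libraries correlated at -0.330, -0.156 and 0.0998. Those of other-numbered ones correlated at -0.232 to 0.323, and whether the numbers pair the samples was not tested. Precision was lowest for the genes below 2 CPM. Their 95% limma voom interval reached a median of 0.75 log2 units to either side, against 0.28 above 50 CPM. Whether depth accounts for this was not tested.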
